A study of Mus musculus with 14 samples.

Results

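The regions described here are day 4 CTCF sites that lay within active chromatin of WT cells and had no CTCF peak in K20R cells. CTCF peaks of 8 lists were merged into 86652 sites wherever they overlapped by at least 1 bp. A site was called lost when both WT lists of day 4 held a peak and neither K20R list did, which left 10345 sites. Of these, 933 overlapped a WT H3K27ac peak of day 4 by at least 1 bp, and these 933 sites were chosen by those calls, so their CTCF difference at day 4 is given as a description without a test. Sites with both WT calls numbered 55053, of which 18.8% were lost. Of these sites 6461 overlapped WT H3K27ac, of which 14.4% were lost (the 933), 4496 were called in all 4 lists (kept) and 1032 were called in only 1 K20R list.

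CTCF is a zinc finger protein that binds a long DNA motif and, together with the cohesin ring, anchors chromatin loops and separates neighbouring regulatory domains. Acetylation of histone H3 at lysine 27 (H3K27ac) marks active promoters and enhancers. CTCF bound at promoters and enhancers is known to take part in contacts between them.

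The cells were mouse E14Tg2A embryonic stem cells (ESCs) with WT CTCF, or the same line with lysine 20 of CTCF replaced by arginine (K20R) by CRISPR/Cas9. At day 0 they were ESCs kept in serum with LIF and 2i on mitomycin C-treated mouse embryonic fibroblasts, and at day 4 they were embryoid bodies (EBs), aggregates in which ESCs differentiate, grown as hanging drops without LIF. Each genotype had 2 CTCF ChIP-seq libraries per day and 1 H3K27ac library at day 4, so H3K27ac values have no replicate check. Peak names inside the K20R H3K27ac list read M1, a name that the labels do not explain, whereas those of the other lists carry the genotype of their label, so every K20R H3K27ac value below rests on the label of that list. The study's methods call its CTCF replicates biological and independent. The sources used here do not say how many clones stood behind each genotype, so genotype and clone cannot be told apart. The K20R change itself cannot be seen in peak lists.

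The sequences below show the CTCF motif matches of members that the later results turn on. In each, the 19 bp best match within 100 bp of the summit to a CTCF matrix learned from WT day 0 peaks is in capitals, on the strand of the match, in GRCm38 (mm10). The motif centre lay 2 to 35 bp from the CTCF summit, except at Stag1, where it lay 82 bp away. The first 6 share the word CCAGAAGAGGGC. The next 5 do not hold it.
Nanog (chr6:122709407-122709467, + strand): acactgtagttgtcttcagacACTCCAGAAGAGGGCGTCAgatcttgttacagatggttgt
Tdgf1 (chr9:110948442-110948502, + strand): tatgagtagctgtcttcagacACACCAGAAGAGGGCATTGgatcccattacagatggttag
Mau2 (chr8:70045204-70045264, + strand): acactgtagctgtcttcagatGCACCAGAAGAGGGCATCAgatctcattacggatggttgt
BC107364 (chr3:96427917-96427977, + strand): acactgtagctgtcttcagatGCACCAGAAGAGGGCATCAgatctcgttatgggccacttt
Nuggc (chr14:65597902-65597962, - strand): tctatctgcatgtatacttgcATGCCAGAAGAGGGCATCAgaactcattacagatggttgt
Wdtc1 (chr4:133345871-133345931, - strand): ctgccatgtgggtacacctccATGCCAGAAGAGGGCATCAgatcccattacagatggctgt
Enc1 (chr13:97240304-97240364, + strand): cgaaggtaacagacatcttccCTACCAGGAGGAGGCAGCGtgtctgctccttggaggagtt
Slfn3 (chr11:83231144-83231204, - strand): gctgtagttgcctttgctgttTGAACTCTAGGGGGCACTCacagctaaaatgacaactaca
Tbx6 (chr7:126775357-126775417, - strand): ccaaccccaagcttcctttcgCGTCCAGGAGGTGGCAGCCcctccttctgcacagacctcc
Hdac1 (chr4:129522465-129522525, - strand): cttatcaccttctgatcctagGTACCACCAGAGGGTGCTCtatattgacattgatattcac
Stag1 (chr9:100736672-100736720, + strand): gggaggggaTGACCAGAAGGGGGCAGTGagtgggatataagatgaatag

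CCAGAAGAGGGC was the most frequent 12-base word in the motif matches of the members, and it was picked for that reason, so its share among them is a description. It lay, on either strand, within 100 bp of the summit at 142 of 933 members, which is 15.2% (95% Wilson interval 13.1 to 17.7). The share was 16.7% of all 55053 sites with both WT calls, 9.21% of kept sites in WT H3K27ac (8.4 to 10.1) and 20% of lost sites outside WT H3K27ac (19.2 to 20.8). Of the 142 members with the word, the motif match of 139 lay mostly in sequence that the reference masks as repeat, against 64 of 359 members with a motif and without the word. Among the named members, the 7 with the word agreed at 29 to 53 of 61 bases when aligned on the motif (median 39 over 21 pairs). The 12 bases of the word are the same in all these pairs by choice. The 14 with a motif but without the word agreed at 13 to 30 (median 21 over 91 pairs). Pairs across these groups were not counted. The 14 include sites, near Kat8 and Stag1, whose motif match was 100% masked as repeat. Among the 7, the site near Mau2 was the closest to others, with 53 of 61 bases the same as at Nanog and, equally, at BC107364. Short interspersed repeats of rodents are known to carry CTCF motifs into many places of the genome. The reference marks a base as repeat or not and gives no repeat family.

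Libraries were compared before use. The CTCF lists held 41360 to 77657 peaks. Because MACS2 derives fold enrichment and p from the reads stacked at a summit (the pileup) and a local background, the pileup was recovered as a whole number for 100% of peaks with −log10 p below 200 in every list, matching the deposited −log10 p within 0.01. Replicate pairs were then compared by the squared difference of their pileups over that expected from counting error, at sites with at least 60 reads in the pair. This ratio was 0.635 for the day 4 WT pair and 0.784 for the day 0 K20R pair, against 1.55 for the day 0 WT pair and 1.44 for the day 4 K20R pair. The first 2 pairs differed by less than the sampling noise, although the methods call them independent, and each may be 1 library. The 2 WT calls required of a member may then rest on 1 library. They were not the same call, as 1426 sites met the rule without the first WT list and 1495 without the second. The day 0 K20R pair is also given below as 1 sample. Summit pileups are maxima, for which counting error is not exact.

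The members were weak CTCF sites in WT cells. Their pileup in the day 4 WT lists had a median of 11 reads in the first library (range 5 to 45, interquartile range 9 to 14) and 11 in the second (range 5 to 46, interquartile range 9 to 14). Kept sites in WT H3K27ac had medians of 46 and 45 reads. The lowest pileup called in any of the 8 lists was 5 reads, and 440 and 455 of the 933 members had at most 10 reads in the first and second WT list. Strength, meaning the percentile rank of the fold enrichment in its own list averaged over both WT lists, had a median of 18.1 for members, 27.4 for sites with 1 K20R call and 75.3 for kept sites. Beyond a pileup too low to be called, the peak lists say nothing of how many K20R reads lay at a member.

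**Figure D1:**
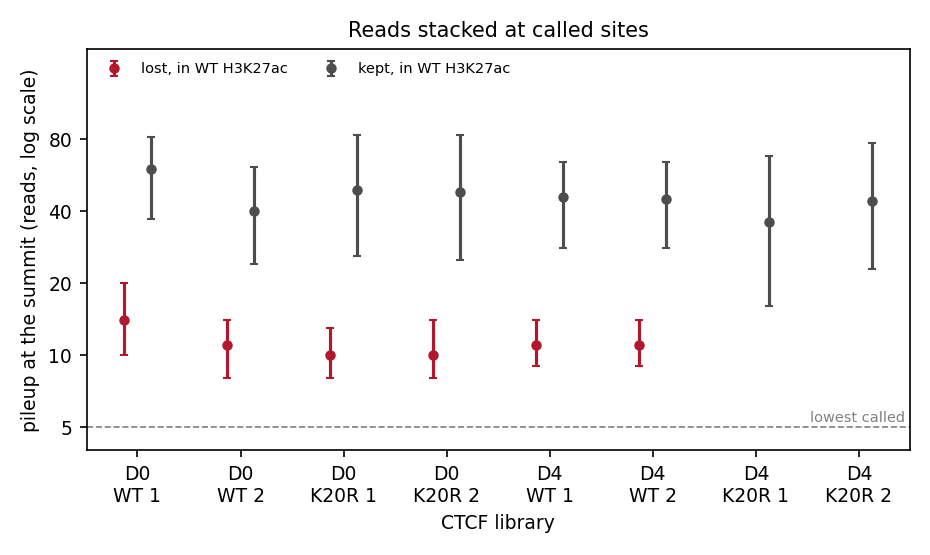
Reads stacked at the summit (log axis) in each CTCF library, as median (point) and interquartile range (bar) over the sites called there, for lost sites in WT H3K27ac and kept sites in WT H3K27ac, with a dashed line at the 5 reads of the lowest peak called. Lost sites lie at medians of 10 to 14 reads wherever they were called, close to the lowest peaks called, and the K20R libraries of day 4 hold none of them by the rule. Peaks with −log10 p of 200 or more have no recovered pileup, which leaves 3370 of 4496 kept sites in the second K20R library of day 4.

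The edge of the rule was not sharp. The weakest member, in an intron near Slc2a3, a glucose transporter gene, at chr6:122735694-122736019, had a WT −log10 q of 1.36, and the weakest site with 1 K20R call had 1.66. On the side of H3K27ac, 641 members lay wholly within WT H3K27ac and 59 had under 50 bp in it. Of the lost sites outside, 100 lay within 100 bp of a WT H3K27ac peak and 717 within 1 kb. The number of members depended on list length. With every CTCF list cut to the length of the shortest, 41360 peaks by −log10 p, 168 sites met the rule, and 102 of the 933 members were still among them.

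H3K27ac was called in K20R cells at most members. A K20R H3K27ac peak overlapped 677 of 933 members, which is 72.6% (69.6 to 75.3), against 81.6% of all 6461 sites with both WT calls in WT H3K27ac, 83.5% of kept sites (82.3 to 84.5) and 81.4% of sites with 1 K20R call (78.9 to 83.7). Of the 256 members without one, 116 lay in a WT H3K27ac peak that a K20R peak met elsewhere, 117 had a K20R H3K27ac peak within 1 kb, and 214 had one within 10 kb. Counting by domain, 764 of the 906 WT H3K27ac peaks that hold a member were met by a K20R peak, which is 84.3% (81.8 to 86.5). Of all 38982 WT H3K27ac peaks 63.1% were. The WT peak at a member had a median width of 2117 bp, against 885 bp over all WT peaks, so these shares do not compare like peaks. Counted by site, the WT H3K27ac peak was met by a K20R peak, at the site or elsewhere, for 84.7% of members (82.2 to 86.8) and 88.8% of kept sites (87.8 to 89.7), a smaller gap than at the sites themselves. The K20R H3K27ac list was the longer one, with 45318 peaks. These intervals hold counting error alone, as if sites were independent, and with 1 H3K27ac library per genotype they do not compare genotypes.

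The share with K20R H3K27ac followed the strength of the WT H3K27ac peak. Members were divided at the quartiles of the fold enrichment of that peak. In the weakest bin 44.6% of members kept a K20R H3K27ac call (38.4 to 51.1), in the second 67.4% (61.1 to 73.1), in the third 85.4% (80.3 to 89.4) and in the strongest 92.7% (88.7 to 95.4). Kept sites within the same limits had 55.5% (52.2 to 58.8), 78.3% (75.8 to 80.6), 94% (92.6 to 95.2) and 97.1% (96 to 97.9). Sites with 1 K20R call had 40.6% (32.7 to 48.9), 75.9% (70.5 to 80.7), 91.3% (87.8 to 93.9) and 94.1% (90.9 to 96.2). Their intervals met those of the members in all 4 bins. The members lay below the kept sites in all 4 bins and the intervals of members and kept sites did not overlap. Members were narrower sites, with a median width of 314 bp against 582 bp, and the part of site width in this difference was not tested. When the summit itself had to lie in the H3K27ac peaks, which also changes which sites are counted, the shares were 71.9% of 743 members and 79.2% of kept sites, a difference of -7.38 percentage points in place of -10.9.

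**Figure D2:**
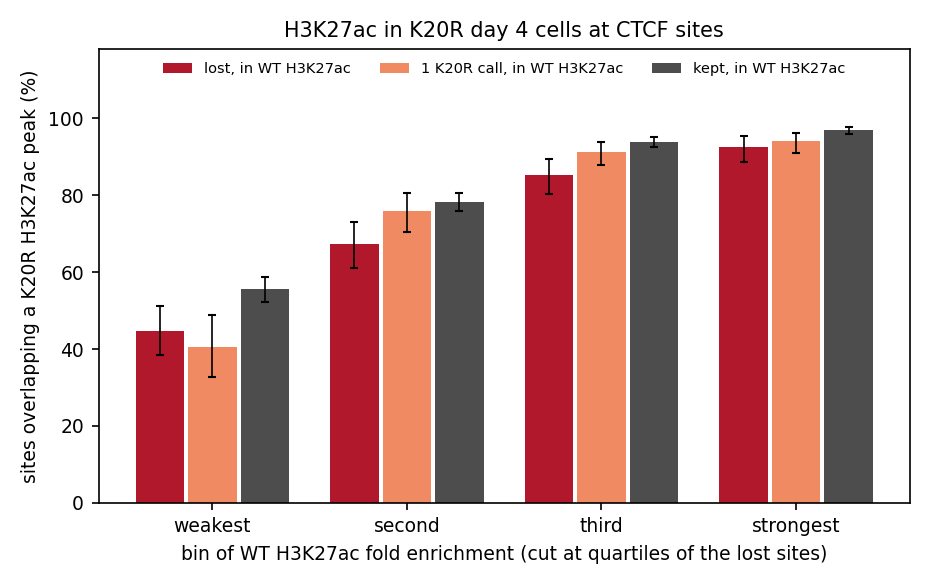
Share of sites that overlap a K20R H3K27ac peak (percent, bars with 95% Wilson intervals) by bin of WT H3K27ac fold enrichment, for lost sites, sites with 1 K20R call and kept sites, all in WT H3K27ac. Lost sites go from 44.6% in the weakest bin to 92.7% in the strongest, and kept sites from 55.5% to 97.1%.

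By CTCF strength in WT cells the picture was less even. Members had K20R H3K27ac at 73.8%, 71.2%, 81.3% and 64.1% from the weakest to the strongest bin of WT CTCF percentile. Few kept sites were that weak. In the weakest bin 96% of 25 kept sites had K20R H3K27ac (80.5 to 99.3), above the interval of the members (67.8 to 79), and in the second 83% of 47 did (69.9 to 91.1), with an interval that met that of the members (65.1 to 76.7). In the third bin 81.7% of 115 kept sites had K20R H3K27ac (73.7 to 87.7), which did not differ from the members beyond counting error, and in the strongest bin 83.4% of 4309 did (82.3 to 84.5), against 57.8 to 70 for members. Kept sites of that bin reach much higher strengths than members, so the 2 groups are not matched there.

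At the 677 members with H3K27ac in both genotypes, the WT H3K27ac peak had a median fold enrichment of 5.58 and a median width of 2657 bp, and the K20R peak 5.23 and 3101 bp. These values come from 1 list per genotype, of unequal length, at sites chosen for having a peak in both, so they do not say whether the level of the mark differed. The 256 members without K20R H3K27ac had weaker and narrower WT peaks, with a median fold enrichment of 3.22 and a width of 1061 bp, and 60 of them passed a −log10 q of 5 in WT. Kept sites without K20R H3K27ac had a median fold enrichment of 3.2. With −log10 q of at least 5 required in both H3K27ac lists, 500 members were left, of which 77.6% had a K20R peak.

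**Figure D3:**
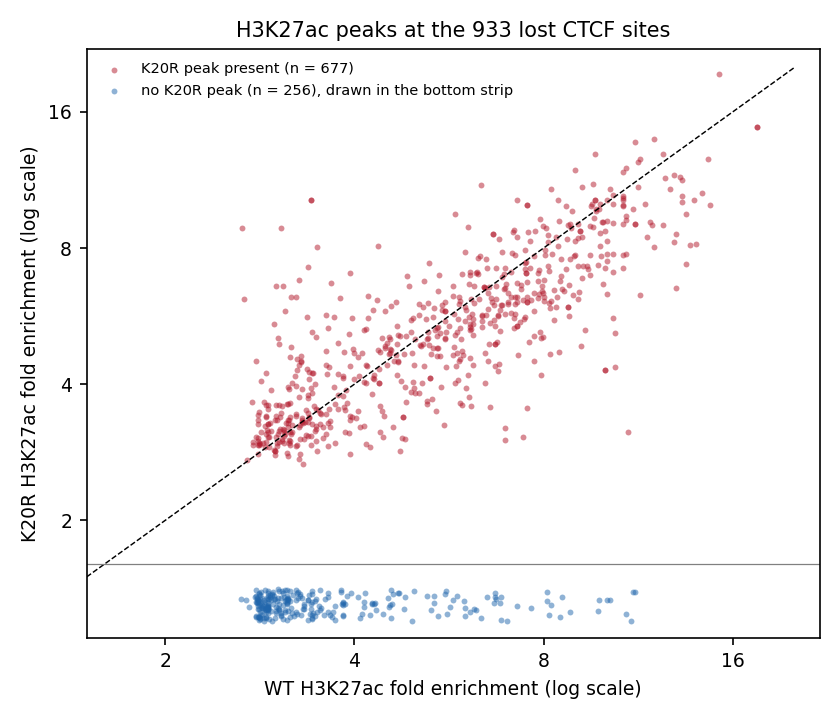
Fold enrichment of the WT H3K27ac peak (x axis, log scale) and of the K20R H3K27ac peak (y axis, log scale) at each of the 933 lost CTCF sites, with a dashed line where both are equal. The 677 sites with both peaks lie on both sides of the line, some far from it, as near Ran (3.41 in WT and 10.2 in K20R). The 256 without a K20R peak, drawn in the strip at the bottom where height has no meaning, lie mostly at low WT values (median 3.22).

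Members without K20R H3K27ac lay less often near gene starts. The CTCF summit lay within 3 kb of an annotated start site at 473 of 933 members, 50.7% (47.5 to 53.9), below 61.6% of all 6461 sites with both WT calls in WT H3K27ac, and above 18% of lost sites outside it. The share was 57.3% of members with K20R H3K27ac (53.6 to 61) and 33.2% of those without (27.7 to 39.2). Sites with 1 K20R call were closer to starts than either, with 71.9% (69.1 to 74.6). Beyond 3 kb, 284 members lay in introns, 47 in exons and 129 between genes. Within 3 kb of a start, 82% of members had K20R H3K27ac (78.3 to 85.2) against 89.6% of kept sites (88.4 to 90.7), and beyond 3 kb 62.8% (58.3 to 67.1) against 73.6% (71.5 to 75.6). A member lay a median of 8376 bp from the nearest kept site. In 153 cases both lay in the same WT H3K27ac peak, and then 87.6% of members had K20R H3K27ac (81.4 to 91.9), against 69.6% of the other 780 (66.3 to 72.7).

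Members held the CTCF motif less often than kept sites. A match above the score passed by 5% of sequences 1 kb away lay within 100 bp of the summit at 497 members, 53.3% (50.1 to 56.5), against 73.6% of all 6461 sites, 82.4% of kept sites (81.2 to 83.4) and 68.2% of lost sites outside WT H3K27ac (67.3 to 69.2). In the sequence 1 kb from the members the share was 7.18%. At a score passed by only 1% of shifted sequences, 17.1% of members and 50.3% of kept sites had a match. Sites with 1 K20R call were like the members, with 53.7% and 18%. At like WT strength the gap was smaller. In the bins of member strength, from weakest to strongest, 44.6%, 50.2%, 52.2% and 65.8% of members and 60%, 53.2%, 74.8% and 83% of kept sites held a motif, where the weakest 2 bins had 25 and 47 kept sites and intervals that met those of the members. Of members with a motif, 40.6% had it mostly in masked repeat (36.4 to 45), against 18.9% of kept sites (17.7 to 20.2) and 45.8% of lost sites outside (44.6 to 47). Members with and without K20R H3K27ac held the motif at 51.3% (47.5 to 55) and at 150 of 256 sites.

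**Figure D4:**
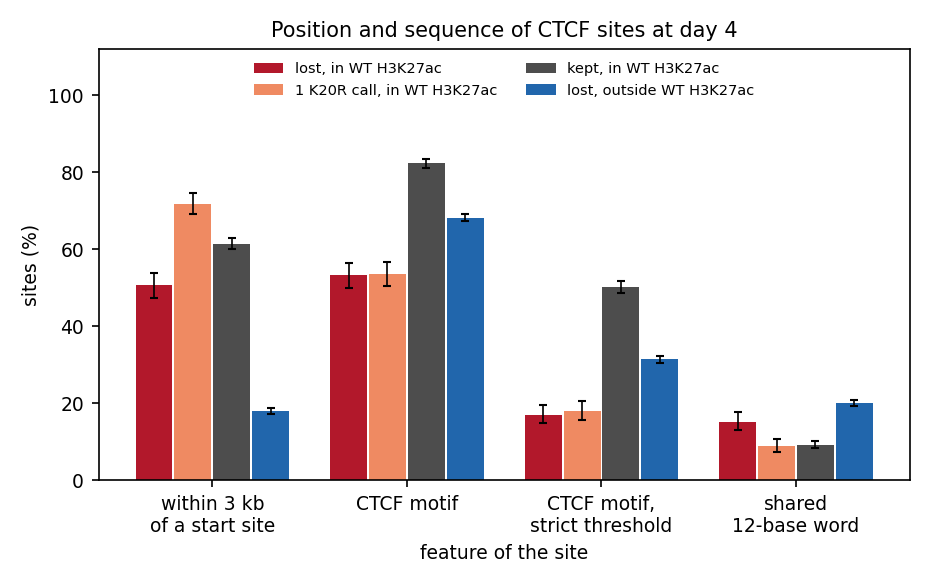
Share of sites (percent, bars with 95% Wilson intervals) within 3 kb of a start site, with a CTCF motif at either threshold, and with the shared 12-base word, for 4 groups of day 4 sites. Lost sites in WT H3K27ac lie below kept sites for start sites (50.7% and 61.5%) and for the motif (53.3% and 82.4%), and above them for the word (15.2% and 9.21%).

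At day 0 fewer members were called in both K20R libraries than in either WT library, but 1 WT library set the size of that difference. The 933 members were called at 700 and 337 sites in the WT lists and at 245 and 243 in the K20R lists. Both K20R lists lay below both WT lists. The means were 518.5 ± 257 (SD, n = 2) in WT and 244 in K20R, a difference of -274.5 sites (two-sided exact permutation p = 0.33, the smallest that 2 against 2 libraries allow). Without the first WT library the difference was -93 sites, and with the K20R lists counted as 1 sample the exact permutation p was 0.667, again the smallest possible. That first list held 77657 peaks, more than any other, and 274 members were called at day 0 in it alone. Kept sites in WT H3K27ac were called at 4476 and 4373 sites in WT and at 4371 and 4362 in K20R.

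Members with and without K20R H3K27ac at day 4 were called at day 0 at like shares. Those with it were called at 508 and 247 of 677 sites in WT and at 176 and 173 in K20R. Those without it were called at 192 and 90 of 256 sites in WT and at 69 and 70 in K20R. Of all members, 198 were called in no list of day 0 and 117 in all 4. The pattern of day 4 (both WT lists, neither K20R list) was already there at day 0 for 120 members, 12.9% (10.9 to 15.2). Of the 6461 sites in WT H3K27ac, members included, 4.02% had it, and of the kept sites 1%. These groups differ in CTCF strength, and they were not compared here at like strength. Over the 117 members called in all 4 lists, the median percentile was 46.2 and 24.4 in WT and 16.7 and 17 in K20R, a difference of -18.4 points (exact permutation p = 0.33, n = 2 libraries a genotype), and the median pileup was 23 and 14 reads in WT and 12 and 13 in K20R. A percentile is a rank within its own list, and a long list with more weak peaks gives the same site a higher rank. These differences can therefore depend on list length, which was 77657 peaks in the first WT list and 51905 to 52698 in the other 3. With CTCF lists of equal length the difference was -17.5 points, over 14 members of that setting. Without the first WT library the difference was -6.87 points. Over kept sites it was -5.74 points. Of the 117 members, the 32 without K20R H3K27ac had median percentiles of 49.9 and 34.3 in WT and 20 and 22.5 in K20R, above the 44, 19.8, 14.7 and 15 of the 85 with it in all 4 lists.

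**Figure D5:**
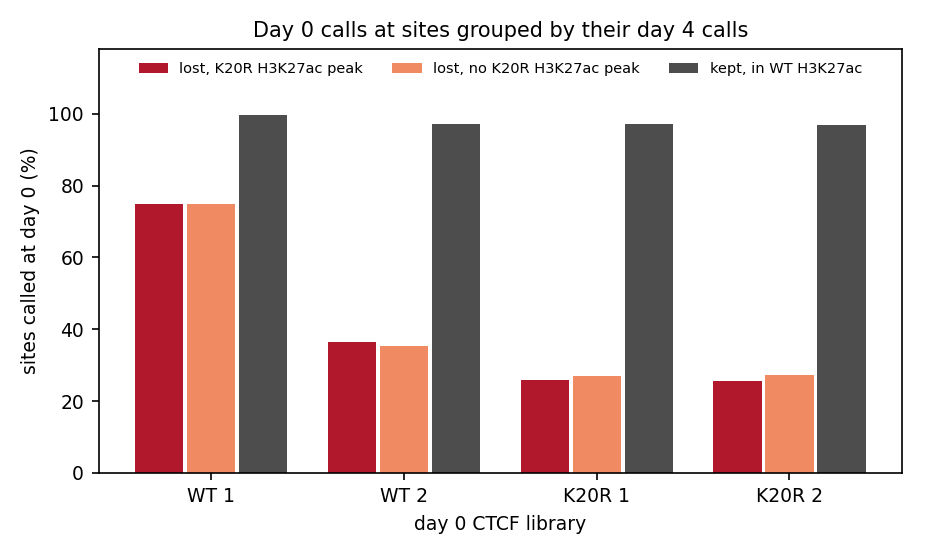
Share of sites called in each day 0 CTCF library (percent of 677 lost sites with K20R H3K27ac, 256 without, and 4496 kept sites in WT H3K27ac). Both kinds of lost site are called at 75% in the first WT library, at 35.2% and 36.5% in the second and at 25.6% to 27.3% in the K20R libraries, and kept sites at 97% or more in all 4.

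The strongest members were taken as the 8 with and the 8 without K20R H3K27ac that had the highest WT percentile, each named by the nearest protein-coding start. All 16 remained members with CTCF lists of equal length. That cut spares strong peaks, for which these sites were chosen, so it is no check of them. The strongest of all lay 73 bp from a start of Zfp219, a zinc finger gene, at chr14:52020394-52020827, with 45 and 46 reads in WT at day 4, 33 and 10 in WT at day 0, and no day 0 call in K20R. H3K27ac was kept there, at a fold enrichment of 8.95 in WT and 7.68 in K20R. No motif passed the threshold, and a kept site lay 436 bp away. The site belongs to a stretch of chromosome 14 from 40 to 70 Mb in which 27.6% of the sites in WT H3K27ac were lost (32 of 116, 20.3 to 36.3). Earlier results on these data had singled this stretch out for lower K20R signal, so its high lost share is a description. The other stretch so singled out, for higher K20R signal, was chromosome 8 from 80 to 110 Mb. There 9.09% were lost (10 of 110, 5.01 to 15.9).

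The site near Ran, which encodes the small GTPase of nuclear transport, had 39 and 43 reads in WT at day 4 and 31 and 18 at day 0, and 1 K20R call at day 0 with 10 reads. It lay between genes in a peak that was stronger and wider in K20R, at 10.2 and 8546 bp against 3.41 and 1950 bp in WT. The site near Ncl, encoding nucleolin, was alike in this, with a peak of 8.03 and 13990 bp in K20R and 3.49 and 679 bp in WT. The Ncl site was called in all 4 lists of day 0 with 29 and 10 reads in WT and 16 and 18 in K20R. At Oaz2, encoding an antizyme that controls polyamine synthesis, the K20R peak had 3.2 over 4501 bp and the WT peak 6.94 over 33797 bp. Here and at Ran and Ncl the values belong to whole peaks of unlike width and do not give the level at the site. The Oaz2 site had 40 and 32 CTCF reads in WT at day 4 and lay 15338 bp from the start of Oaz2. That site was 1 of 3 members in a single WT H3K27ac peak of 33797 bp at chr9:65628927-65662723, more than in any other of the 26 peaks that held at least 2, of which K20R peaks covered 83.5%, and it held no kept site. The other sites of this set were named for BC107364 (start 24340 bp away), Dnajb2, a chaperone gene, Col18a1, a collagen gene, and Enc1. They had 22 to 28 reads in WT at day 4.

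The strongest members without K20R H3K27ac were named for Tex2, Slfn3, Nuggc, Sall2, 4930544D05Rik, Calm2, Wdtc1 and Lypd6b, with 18 to 36 reads in WT at day 4. The start lay 12855 bp away for Tex2, 39839 bp for Slfn3, 74801 bp for Calm2 and 78243 bp for Lypd6b, and within 10 kb for the others. The site near Sall2, a zinc finger gene, at chr14:52325848-52326220, was called in all 4 lists of day 0, with 46 and 32 reads in WT and 11 and 23 in K20R. It had 29 and 27 reads in WT at day 4 and no K20R call. Its WT H3K27ac peak spanned 7605 bp, and the nearest K20R peak lay 894 bp from the site. The site near Nuggc, a GTPase gene, had 26 and 31 reads at day 4 and 50 and 18 at day 0 in WT, and 8 reads in the 1 K20R list of day 0 that called it. Both lie in the chromosome 14 stretch named above, where 20 of 32 members (62.5%, 45.3 to 77.1) and 51 of 75 kept sites had K20R H3K27ac. Of these 16 sites only the one near Lypd6b, in its intron, had no call at day 0 in any list, with 23 and 18 reads in WT at day 4, and no K20R H3K27ac lay within 42861 bp.

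A gene was linked to a member when a start of it lay within 10 kb of the summit or the summit lay inside the gene. This linked 4.62% of 21911 protein-coding genes, and 8.56% of the 10872 with a WT H3K27ac peak within 1 kb of a start. By the same rule, kept sites were linked to 19.3% of all protein-coding genes. Genes of 9 lists are given by this rule, and the lists were chosen with earlier results of these data known.

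Among 20 pluripotency genes 3 were linked (15%), by 4 members, and 30% were linked to a kept site. Nanog, a core factor of the pluripotent state, had 2 members, at chr6:122708887-122709577 and chr6:122713444-122713832. The first had 8 and 9 reads in WT at day 4 and was called at day 0 in the first WT list alone, with 24 reads. The second had 10 and 11 reads at day 4, 21 and 9 in WT at day 0, and 12 in the second K20R list. Neither overlapped K20R H3K27ac, but K20R peaks lay 893 bp and 126 bp away. Both had a motif, and the sequence of the first is shown above. Tdgf1, encoding the Nodal co-receptor Cripto, had a member with 7 and 8 reads 2316 bp from the nearest start, where H3K27ac was kept, at 7.97 in WT and 5.09 in K20R. Tbx3, a T-box factor, had a member of 17 and 12 reads in an exon that was called in no list of day 0, and no K20R H3K27ac lay within 25407 bp. Start-site H3K27ac on this list was present at 12 genes in WT and 13 in K20R, the extra one being Klf4.

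Of 21 genes of the primitive streak and mesoderm, 1 was linked (4.76%), close to the share of all protein-coding genes. Tbx6, a T-box factor of presomitic mesoderm, had 2, which lie closer to starts of Ypel3 and Ppp4c. The first, shown above, had 24 and 12 reads in WT at day 4 and 18 and 8 in WT at day 0 with no K20R call, and H3K27ac was kept, at 5.11 and 4.86. The second, at chr7:126787981-126788326, had 29 and 20 reads, was called in all 4 lists of day 0, and lay 218 bp from K20R H3K27ac. It was the only member of any list still met when CTCF lists had equal length. H3K27ac within 1 kb of a start was present at 10 genes of this list in WT and 4 in K20R, absent in K20R at T, Eomes, Gsc, Lhx1, Pdgfra and Snai1, none of which was linked to a member. Over all genes with a WT peak at a start, 4.87% had none in K20R. No gene of 20 cardiac, 20 neural or 20 endoderm genes was linked, and 1, 3 and 5 of them had start-site H3K27ac in WT.

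Among 22 genes of germ layer signals 5 were linked (22.7%), and 22.7% were linked to a kept site. At Wnt3, a ligand needed for the primitive streak, the member had 9 and 9 reads in WT at day 4, no call at day 0, and no K20R H3K27ac within 67278 bp, and the start of Wnt3 carried H3K27ac in WT only. A K20R H3K27ac peak overlapped the other 4 members, each with a lower fold enrichment than the WT peak. Fold enrichment was 5.4 in WT and 3.49 in K20R at Wnt5b, 4.09 and 3.21 at Wnt8a, and 6.18 and 5.15 at Spry2. Axin2, a feedback inhibitor of Wnt signalling, had a member 229 bp from its start with 11 and 8 reads, called in all 4 lists of day 0 (11 and 9 reads in WT, 10 and 12 in K20R), at H3K27ac of 9.76 in WT and 7.32 in K20R. Wnt5b had a member 105 bp from its start with 16 and 11 reads at day 4 and 30, 20, 25 and 17 at day 0, Wnt8a one with 15 and 12 reads and no day 0 call, and Spry2, an inhibitor of receptor tyrosine kinase signalling, one with 12 and 17 reads. WT-only H3K27ac was also found at starts of Fgf8, Cer1 and Sp5, and K20R-only H3K27ac at a start of Fgf4, none of which had a linked member. In all, 14 genes of this list had start-site H3K27ac in WT and 11 in K20R.

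Genes of CTCF and cohesin were linked in 4 of 19 cases (21.1%), and 47.4% were linked to a kept site. Ctcf itself had an intronic member of 8 and 9 reads without K20R H3K27ac, in the chromosome 8 stretch named above. Stag1, a cohesin subunit, had one of 8 and 8 reads, 35 bp from K20R H3K27ac. The motif of the Stag1 site, shown above, scored 20.7, the highest among the sequences extracted. At the members linked to Mau2, part of the cohesin loader, and Cdca5, encoding sororin, H3K27ac was kept, at 10.3 and 9.07, and at 3.26 and 3.22. These members lie inside Sugp1 and Tmem262, whose starts are closer, at 2412 bp and 503 bp. Of 20 acetylation enzymes 6 were linked (30%), and 45% were linked to a kept site. Both lists were thus linked to kept sites, too, above the share of all protein-coding genes. H3K27ac was kept at Kat2b, Kat8, Hdac1, Hdac3 and Sirt1 and not at Hdac7, and Sirt1, a deacetylase, had the highest, at 9.08 in WT and 9.03 in K20R, beside CTCF pileups of 6 and 8 reads. All starts with WT H3K27ac on these 2 lists, 17 and 19, had it in K20R too.

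Fibroblast genes were listed because feeder cells could be carried along. Of 20, Col5a1, a collagen gene, was linked, by a member of 10 and 9 reads 535 bp from a start with no K20R H3K27ac. Start-site H3K27ac was present at 6 of these genes in WT and 4 in K20R, in WT only at Col5a1, Pdgfrb, Twist1 and Vim and in K20R only at Loxl1 and Mmp2. These genes are also active in mesoderm, and the part of cell composition in the H3K27ac differences was not tested. In bulk samples, fewer cells of a type and less signal per cell cannot be told apart.

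Some genes held several members in their body and the 10 kb on each side. Gm20388 had 11, but it is annotated as 1 gene over chr8:119910841-124345722 that spans many others, and Fgfr2, encoding an FGF receptor, had 4 in an annotation that reaches over chr7:130162451-133123350. Rere, a transcriptional co-repressor gene, had 4 members, all with K20R H3K27ac, and 3 kept sites in WT H3K27ac. A further 10 genes tied at 3 members. All 3 had K20R H3K27ac at Coq5, which acts in coenzyme Q synthesis, at Eef1g, a translation elongation factor gene, at Rarg, a retinoic acid receptor gene, at Rbpms2, an RNA-binding protein gene beside Oaz2, and at Ube2k, a ubiquitin-conjugating enzyme gene. At Bcl7c, Tbx6 and Ube2d2a 2 of the 3 did, and at Gse1 and Sbno2 1 of the 3. Coq5 was the only one of these 13 genes with no kept site in WT H3K27ac in the same span.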

How the data were processed

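CTCF and H3K27ac ChIP-seq peak lists of day 0 and day 4 were analysed, with groups from the sample labels. The authors trimmed reads with Trim Galore, aligned them to mm10 with Bowtie2, removed duplicates, low mapping quality and blacklisted reads, subsampled CTCF libraries to one read number (not stated for H3K27ac) and called peaks per library with MACS2, broad for H3K27ac. The input set against each library was not stated, and the 4 input samples were not analysed here. Per peak, the deposited lists give an integer score, which was not used, a fold enrichment, and −log10 p and −log10 q. For CTCF the fold enrichment is a ratio of summit to local background. The broad H3K27ac lists have no summit, and MACS2 gives their values as means over the peak. Those values therefore depend on where a peak was joined or split. Reads were not used here, so reads per site could not be tested, and the pileup is what the lists hold of depth.

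Sites, calls and shares were computed in Python 3.11.15 with numpy 2.4.6, pandas 2.3.3 and scipy 1.17.1, and the steps were tested on simulated data. Start sites, exons and genes came from GENCODE M21 basic and sequence from RefSeq GRCm38.p6, the build of the lists. Shares carry 95% Wilson intervals. The 2 day 0 comparisons used two-sided exact permutation tests over libraries. The 19 bp CTCF matrix was learned around the summits of the top 1000 peaks, by fold enrichment, of either WT day 0 list. Named sites were the 8 strongest members with and without K20R H3K27ac, members linked to genes of 9 lists, the genes with most members (ties at 3 included) and the H3K27ac peak with most members. Members, lists and alternatives were chosen with earlier results of these data known. Alternatives were stricter −log10 q, lists of equal length, other overlap and distance rules, omitted segments or sex chromosomes, each library left out and a replicate block.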

Additional observations from a re-analysis of the deposited data

How the results depend on the processing

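The number of members moved most. It was 933 as reported, 168 with CTCF lists of equal length, 500 with −log10 q of at least 5 in both H3K27ac lists, and 1011 to 1887 with 1 day 4 CTCF library left out, where fewer calls are required. The other 7 settings kept it within 1.5 times. The share with K20R H3K27ac (72.6%) was 77.6% with the stricter H3K27ac lists and 73% to 77.2% with 1 library left out, highest without the second K20R library. It lay below that of kept sites in all 13 alternatives, by -6.2 points without that library and by -6.24 with the stricter H3K27ac lists. These differences, and the counting of the day 0 K20R lists as 1 sample, were added after seeing the data. The share near a start site (50.7%) was 45.8% with CTCF lists of equal length, 71.6% with the stricter H3K27ac lists, 33.7% within 1 kb, 75.1% within 10 kb and 50.5% to 62.4% with 1 library left out. The motif share (53.3%) was 58.3% with −log10 q of at least 5 for CTCF, 66.1% with lists of equal length, 17.1% at the 1% threshold and 49.1% to 53.5% with 1 library left out. The cause of these shifts was not tested.

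The day 0 differences kept their sign in all 18 alternatives each. With 1 day 0 library left out, the calls differed by -456 to -93 sites and the strength by -28.6 to -6.87 points, and with 1 day 4 library left out by -442 to -291 sites and -17.2 to -15.2 points. With CTCF lists of equal length they were -31 sites and -17.5 points over 14 members. With replicate numbers paired (replicate block) they stayed at -274.5 sites and -18.4 points, with an exact p of 0.5, the smallest that 2 pairs allow. The numbers are only shared labels. With 2 libraries a group no p can pass 0.05, and a pileup of about 11 reads leaves little room between a call and none.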
